A study of Mus musculus with 18 samples.

Results

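The interaction of hairpin and activation asks whether the change of a gene between E0 and E1 differed between mice that carried shRNA-cFos and mice that carried shRNA-Ctrl. It was formed per gene as the log2 fold change E1 over E0 with shRNA-cFos minus the log2 fold change E1 over E0 with shRNA-Ctrl. Genes were chosen by a mean normalized count of at least 50 in both of the authors' deposited tables. Of 24015 genes listed, 12406 met this minimum, and the 12405 of them that the authors had tested in both tables are described here. A gene is said to have a lower response where the difference was below 0 and a higher response where it was above 0, at an adjusted p under 0.05.

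Total RNA came from the microdissected dentate gyrus of adult C57BL/6 mice 8 weeks old, with 1 library per animal. The interaction uses 4 groups of 3 libraries. They are shRNA-Ctrl_E0 and shRNA-Ctrl_E1 on one side, shRNA-cFos_E0 and shRNA-cFos_E1 on the other, so that every animal carried a hairpin, either a control or one named for c-Fos. The authors name the comparison as E1 against a sham state, and the series concerns neuronal activation. The labels do not define E1 further, nor how the hairpins were delivered or into which cells, so the groups are described only by these names. A further 3 libraries each of cFos_OE and EYFP_OE, which overexpressed c-Fos or a fluorescent protein, enter below as separate animals that the interaction did not use.

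The Fos protein pairs with Jun proteins to form AP-1, a transcription factor that binds DNA at AP-1 elements. Neurons make it within minutes of strong activity as part of the immediate early response. That response includes Fos, Egr and Nr4a factors and effectors such as Arc. Dentate granule neurons, the main cells of the tissue, are quiet at rest and switch on this program in large numbers when driven. The deposited tables hold fold changes with standard errors but no values per library, so values are given per group and the spread is that of the authors' standard errors.

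Fos itself rose at E1 with both hairpins and had a lower response with shRNA-cFos. Per the authors' deposited tables, its log2 fold change was 3.36 ± 0.14 with shRNA-Ctrl and 2.33 ± 0.15 with shRNA-cFos. The difference was -1.03 ± 0.20 (adjusted p = 1.1e-05, normal approximation). Levels estimated from the mean count and the fold change went from 178 to 2126 normalized counts with shRNA-Ctrl and from 230 to 1348 with shRNA-cFos. These levels carry no error, since the tables were normalized separately. The shRNA-cFos levels are therefore set relative to the median gene at E0, which before scaling lay 0.43 lower on the log2 scale (-0.43). Relative to that gene, Fos with shRNA-cFos stood 0.37 higher at E0 and at -0.66 at E1 on the log2 scale, so the larger part of its difference lay at E1.

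Of the 12405 genes, 3176 (25.6%) differed between the hairpins, 1372 (11.1%) with a lower and 1804 (14.5%) with a higher response. A further reading of the same p-values without adjustment gave 4525 genes under 0.05. The median size of a difference was 0.22 on the log2 scale, beside a median standard error of 0.15. Among the genes called, the median difference was -0.62 for lower and 0.52 for higher responses. At least a 2-fold difference was reached by 290 lower and 74 higher responses, so the largest differences were mainly lower responses. In bulk tissue, fewer cells of a type and less RNA per cell cannot be told apart, and this applies to every list below.

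**Figure D1:**
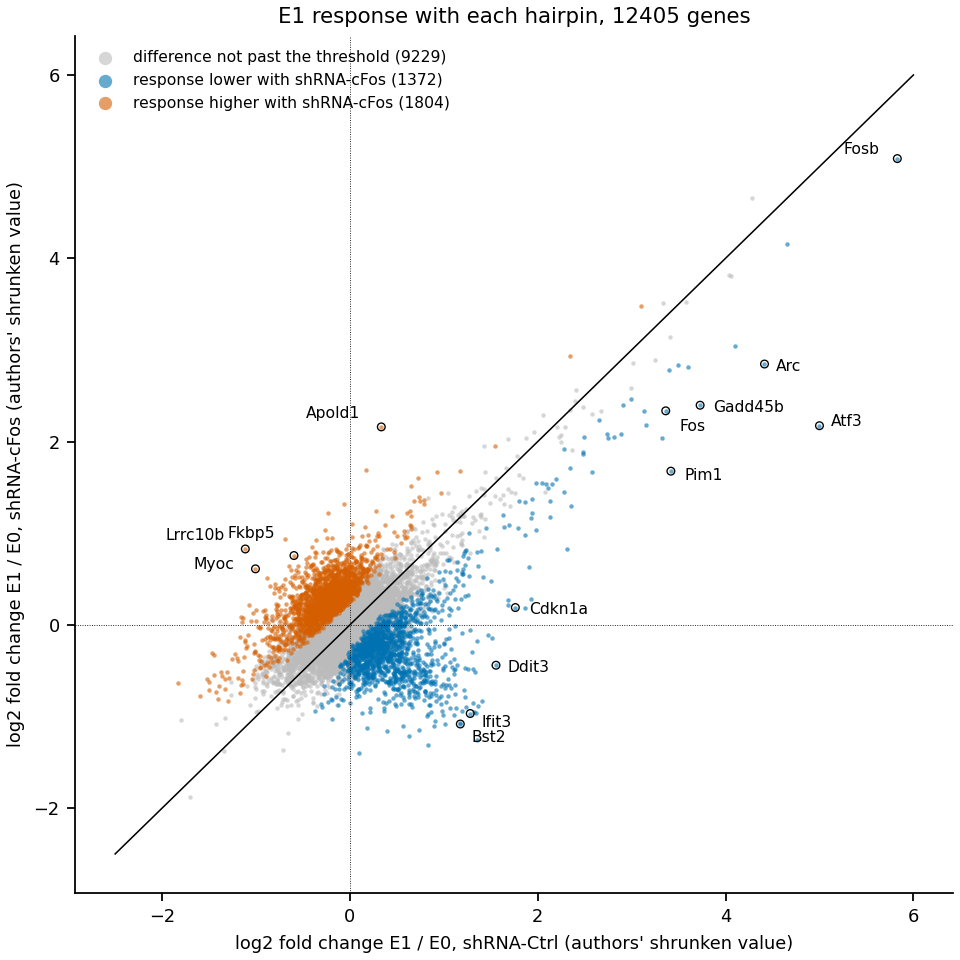
Each point is 1 of 12405 genes, with the log2 fold change E1 over E0 with shRNA-Ctrl on the x axis and with shRNA-cFos on the y axis, both as the authors' shrunken values, and the diagonal marks equal responses. The 1372 lower responses lie below the diagonal and the 1804 higher ones above it, while strongly induced genes such as Fosb and Arc keep positive values in both arms.

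Part of the differing genes moved in opposite directions in the 2 arms. Over all 12405 genes, 18.8% rose and 19% fell with shRNA-Ctrl, and 18.7% rose and 12.6% fell with shRNA-cFos, by the authors' adjusted p under 0.05. By the authors' adjusted p in each deposited table, 239 genes rose with shRNA-Ctrl and fell with shRNA-cFos, and 302 fell with shRNA-Ctrl and rose with shRNA-cFos, and all of them differed between the hairpins, as the same values entered both calls. The first set had a median log2 fold change of 0.60 and -0.57 in the authors' deposited tables, and the second -0.34 and 0.36. By contrast, of the 866 genes that rose in both tables, 108 had a lower and 54 a higher response, and the median difference was -0.01. Of the 587 genes that fell in both, 3 had a lower and 63 a higher response. Most of the differing genes were called in 1 table alone. Of the 1232 genes that rose with shRNA-Ctrl alone, 559 had a lower response, as had 336 of the 738 that fell with shRNA-cFos alone. Of the 1466 genes that fell with shRNA-Ctrl alone, 593 had a higher response, as had 673 of the 1146 that rose with shRNA-cFos alone.

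The size of the activation response was examined by the mean of both log2 fold changes, which favours neither hairpin. Of the 52 genes that rose at least 4-fold on average, 27 had a lower and 2 a higher response. The median log2 fold change of these genes was 2.89 with shRNA-Ctrl and 2.34 with the c-Fos hairpin, from the authors' deposited tables. The 27 included Fos, Fosb, Arc, Egr1, Egr2, Nptx2 and Gadd45b, while Bdnf, Homer1, Egr3, Junb, Nr4a1, Nr4a2 and Nr4a3 were among the 23 that did not pass. The 2 higher ones were Arl4d, which encodes a small GTPase (0.38 ± 0.14), and Synpo, which encodes the actin-associated spine protein synaptopodin (0.59 ± 0.16). The genes named from these 52 were chosen after their values were seen. With the authors' shrinkage removed, 22 of the 52 had a lower and 2 a higher response. At the other end, of the 17 genes that fell at least 2-fold on average, 0 had a lower and 10 a higher response, with medians of -1.43 and -0.77 in the authors' deposited tables. With the shrinkage removed, 1 of the 17 had a lower and 7 a higher response. Genes with a mean response between these ends, from -0.5 to 0.5 on the log2 scale, made up 11503 of the 12405 and held 1224 lower and 1664 higher responses.

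Because a response is a change from E0, a difference can come from either end. For 2301 of the 3176 genes (72.4%), the estimated level ratio between the hairpins (shRNA-cFos over shRNA-Ctrl) was farther from the median gene at E0 than at E1. Over all 12405 genes this share was 61.3%. It held for 78.1% of the lower and 68.1% of the higher responses, and for 1859 of the 3176 genes when the tables were not scaled to each other. Lower responses had a median log2 ratio of 0.43 at E0 and -0.25 at E1, and higher responses -0.36 and 0.20, all relative to the median gene. Without scaling, each of these medians shifts by -0.43. The medians of the lower responses then lie farther from 0 at E1, and those of the higher responses farther from 0 at E0. The place of the larger part among lower responses therefore depends on the scaling. The sign of the ratio turned between E0 and E1 for 1270 of the 1372 lower and 1593 of the 1804 higher responses. The mean of a table covers E0 and E1 alike, so where the means of the 2 tables are close, a difference has to appear as ratios of opposite sign. No test of E0 or E1 alone is possible from these tables, so both ratios are given below for some of the lists. For lists described without them, a difference can likewise come from E0, from E1 or from both.

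**Figure D2:**
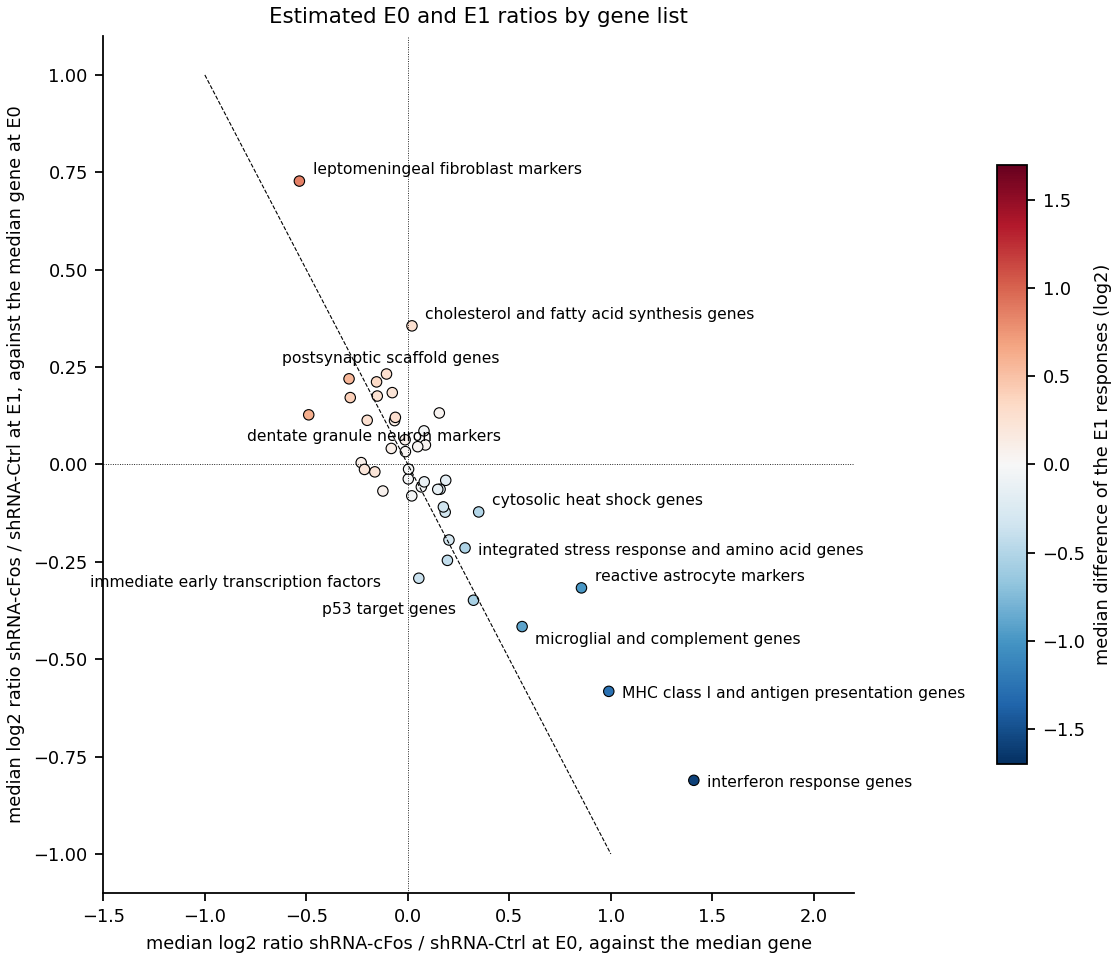
Each point is 1 gene list, with the median log2 level ratio (shRNA-cFos over shRNA-Ctrl) at E0 on the x axis and at E1 on the y axis, both relative to the median gene at E0, coloured by the median difference of the responses; the dashed line marks ratios of equal size and opposite sign. Interferon genes (1.41 at E0 and -0.81 at E1) and granule neuron markers (-0.49 and 0.13) lie farther from 0 at E0. Immediate early factors (0.05 and -0.29) and cholesterol synthesis genes (0.02 and 0.36) lie farther at E1. Without scaling, every point shifts by -0.43 on both axes. The interferon, antigen presentation, microglial, reactive astrocyte, heat shock, integrated stress and lysosomal lists, among others, then lie farther from 0 at E1. The cholesterol list then lies farther at E0.

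Immediate early transcription factors were lower more often than higher. Of 26 genes measured above the minimum, 9 had a lower and 4 a higher response, beside 11.1% and 14.5% of all genes, with a median difference of -0.38. The list rose strongly with both hairpins, with median log2 fold changes of 2.28 and 1.76 in the authors' deposited tables. Its median log2 ratio was 0.05 at E0 and -0.29 at E1, while 7 of the 13 called had their larger part at E0. Fosb, a close relative of Fos, had estimated levels of 161 and 11013 with shRNA-Ctrl and of 198 and 7945 with shRNA-cFos, a difference of -0.74 ± 0.16. Egr1 went from 744 to 7452 and from 861 to 6123 (-0.80 ± 0.31). Ier2 began at nearly equal scaled levels, 116 and 114, and reached 266 with shRNA-Ctrl and 161 with shRNA-cFos (-0.69 ± 0.23). Egr2 had a difference of -0.97 ± 0.30, which did not pass once the shrinkage was removed (adjusted p = 0.078, normal approximation).

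The largest lower response of all 12405 genes was that of Atf3, which encodes a stress-inducible partner of Jun proteins. In the authors' deposited tables its log2 fold change was 5.0 ± 0.21 with shRNA-Ctrl and 2.17 ± 0.22 with shRNA-cFos. The difference was -2.83 ± 0.31 (adjusted p = 9.2e-17, normal approximation). Estimated levels were 51.3 and 3147 with shRNA-Ctrl, and 224 and 1590 with shRNA-cFos. Atf3 therefore stood higher with shRNA-cFos at E0 (log2 ratio 2.13) and lower at E1 (-0.98). With c-Fos overexpression Atf3 rose by 1.52 ± 0.19 on the log2 scale in the authors' deposited table.

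The 4 higher responses among these factors were of another kind. Klf4 and Klf2, zinc finger factors that are also prominent in vascular cells, fell with shRNA-Ctrl (-0.70 and -0.89 in the authors' deposited table). Klf4 was estimated at 218 and 126 with shRNA-Ctrl and at 84.0 and 188 with shRNA-cFos, a difference of 1.63 ± 0.28. Klf2 differed by 0.96 ± 0.27. Maff, which encodes a small Maf protein, and Srf, the serum response factor that activates immediate early promoters, rose with both hairpins and more with shRNA-cFos (0.74 ± 0.29 and 0.47 ± 0.14). Apold1, an early response gene of endothelial cells, was the second largest higher response. It was estimated at 254 and 360 with shRNA-Ctrl and at 76.0 and 447 with shRNA-cFos, a difference of 1.83 ± 0.34. Endothelial and mural markers as a list did not follow Apold1, with 5 of 23 lower and 0 higher and a median of -0.34.

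Effector genes induced by activity were lower for 19 of 37 genes and higher for 5, with a median of -0.42. Their median log2 ratio was 0.19 at E0 and -0.25 at E1. Of the 37 genes, 14 are also on other lists. Gadd45b, which takes part in stress signalling and DNA demethylation, was estimated at 218 and 3170 with shRNA-Ctrl and at 357 and 2081 with shRNA-cFos (-1.33 ± 0.16). Pim1, a kinase gene, went from 53.3 to 713 and from 118 to 453 (-1.74 ± 0.24). Inhba, which encodes activin A, went from 48.5 to 975 and from 98.3 to 794 (-1.29 ± 0.35). Arc, which drives AMPA receptor uptake, went from 806 to 37108 and from 1026 to 23927. Its difference of -1.57 ± 0.35 became -0.98 ± 0.50 with the shrinkage removed and then did not pass (adjusted p = 0.15, normal approximation). MAP kinase feedback inhibitors had 4 lower and 1 higher of 15, beside 11.1% and 14.5% of all genes. Their median was -0.04, and Dusp6 (-0.94) and Spry2 (-0.92) led the lower ones.

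**Figure D3:**
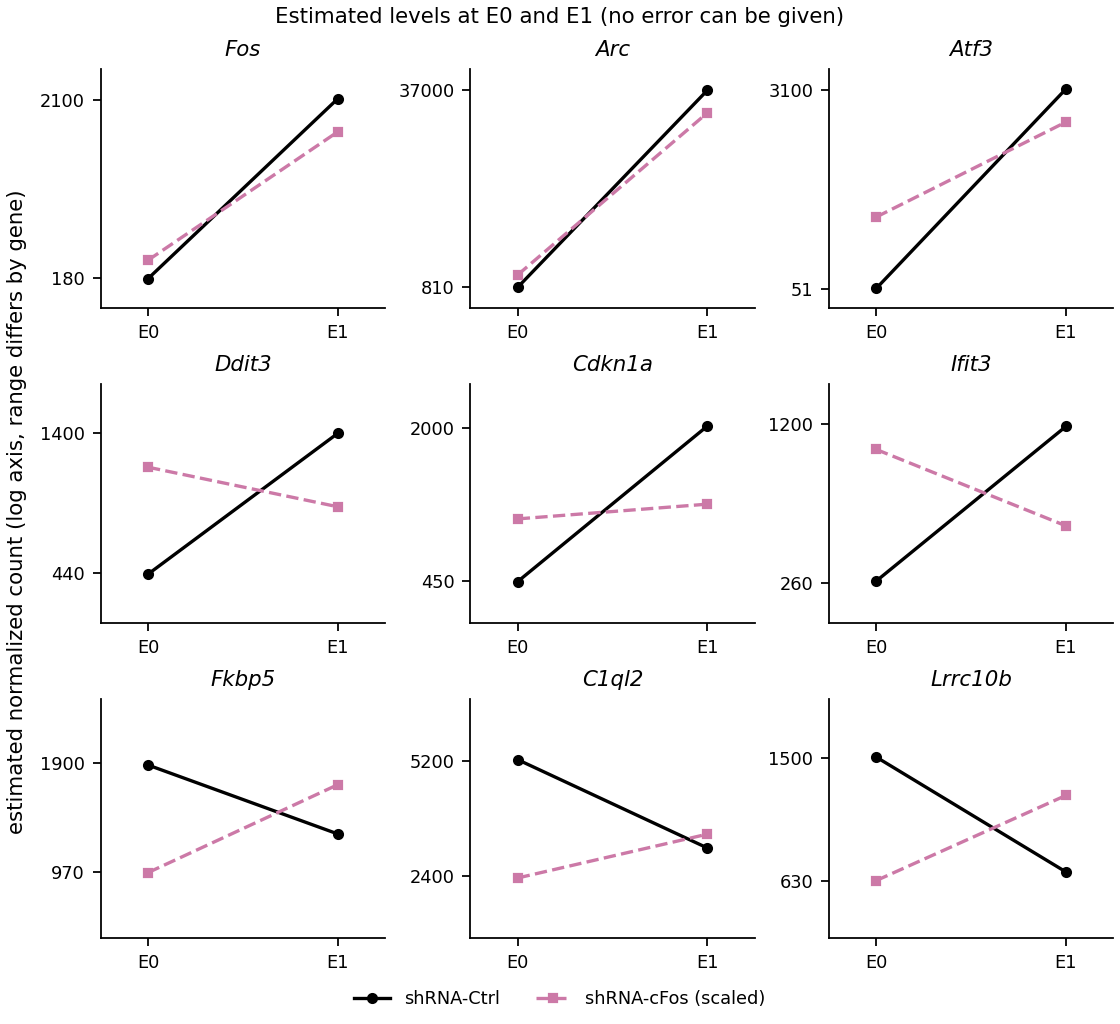
Estimated normalized counts at E0 and E1 of 9 genes, on log axes whose range differs by gene, with shRNA-Ctrl as circles and solid lines and shRNA-cFos, scaled to the median gene at E0, as squares and dashed lines; no error can be given. Fos and Arc rise in both arms and lie closer together at E0 than at E1, whereas the lines of Ddit3, Ifit3, Fkbp5 and Lrrc10b cross, with opposite directions in the 2 arms.

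Most lists of stress response genes held more lower than higher responses. Over all genes, 11.1% had a lower and 14.5% a higher response. Bcl2 family genes, with 2 of each among 13, lay near these shares. The integrated stress response couples amino acid shortage and misfolded protein to Atf4 and its targets. Of 31 genes of this response and of amino acid supply, 15 had a lower and 2 a higher response, with a median of -0.52. With genes of a mean of at least 200 only, the median was -0.32. The median log2 ratio of the list was 0.28 at E0 and -0.21 at E1, and -0.15 and -0.65 without scaling. By the authors' deposited tables, 17 rose and 2 fell with shRNA-Ctrl, while 4 rose and 10 fell with shRNA-cFos. Ddit3, which encodes the pro-apoptotic factor CHOP, was estimated at 436 and 1398 with shRNA-Ctrl and at 1057 and 762 with shRNA-cFos. Its difference was -2.0 ± 0.20 (adjusted p = 2.7e-19, normal approximation). Sesn2, a stress-induced inhibitor of growth signalling, followed at -1.80 ± 0.19, and Chac1, which encodes a glutathione-degrading enzyme, at -1.33 ± 0.26. Mthfd2, of mitochondrial one-carbon metabolism, had a difference of -1.41 ± 0.22. Atf4 itself went from 1709 to 3595 with shRNA-Ctrl and from 2698 to 2915 with shRNA-cFos, a difference of -0.95 ± 0.10. Asns, the asparagine synthetase gene, did not pass, at -0.18 ± 0.11. Cytosolic aminoacyl-tRNA synthetase genes, which load amino acids onto tRNA, had 8 lower and 1 higher of 20, with Aars at -0.60 ± 0.11.

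The promoters of 9362 of the 12405 genes were found in the RefSeq table (GRCm38.p6, 250 bases before to 50 after the start), and 7 motifs were searched in them on both strands. The amino acid response element TGATGCAA, an Atf4 target sequence, was present in 0.684% of these promoters, in 1.32% of those with a lower and 0.842% of those with a higher response. It was present in 5 of 27 integrated stress response genes and in 4 of 12 synthetase genes. Atf3, Chac1 and Slc7a11 are shown because they hold the same letters and responded in different directions. The stretches are chr1:191183406-191183473 (minus strand) for Atf3, chr2:119351019-119351086 (plus strand) for Chac1 and chr3:50443623-50443690 (minus strand) for Slc7a11, with the match in capitals and 5′ to 3′ along the gene's strand.
Atf3: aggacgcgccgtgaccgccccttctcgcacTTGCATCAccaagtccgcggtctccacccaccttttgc
Chac1: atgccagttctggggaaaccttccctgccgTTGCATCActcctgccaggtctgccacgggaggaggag
Slc7a11: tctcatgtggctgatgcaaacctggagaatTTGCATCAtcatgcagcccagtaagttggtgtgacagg
All 3 carry TTGCATCA, the motif read on the other strand, and the Slc7a11 stretch holds a second match, TGATGCAA, left in lower case. Slc7a11, the cystine transporter gene, had a higher response (0.84 ± 0.20), from 1379 to 930 with shRNA-Ctrl and from 1109 to 1396 with shRNA-cFos.

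Both chaperone lists also held more lower than higher responses. Cytosolic heat shock genes had a lower response for 18 of 25 and a higher one for 0, and every one of the 25 differences was below 0, from -1.28 to -0.13. Their median log2 ratio was 0.35 at E0 and -0.12 at E1. Without scaling the medians were -0.08 and -0.55, so the larger part then lay at E1. Hsp90aa1, the stress-inducible Hsp90, was estimated at 21974 and 33190 with shRNA-Ctrl and at 32253 and 30079 with shRNA-cFos (-0.68 ± 0.12). Hspa4, an Hsp110 family chaperone, differed by -0.74 ± 0.10, and Bag3, an Hsp70 co-chaperone, by -0.89 ± 0.18. Chaperones of the endoplasmic reticulum had 12 lower and 2 higher of 24, with a median of -0.32. Hspa5, which encodes BiP, rose with both hairpins, from 4322 to 10036 and from 4800 to 8149, and differed by -0.45 ± 0.09. The element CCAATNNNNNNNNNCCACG of unfolded protein response genes was present in 0.160% of the promoters searched. It was found in 8 of 20 genes of this list, 6 of them with a lower response. Hsp90b1 (-0.54 ± 0.11) and Creld2 (-0.61 ± 0.19) are shown for it, at chr10:86705503-86705581 (minus strand) and chr15:88819490-88819568 (plus strand), with the match in capitals.
Hsp90b1: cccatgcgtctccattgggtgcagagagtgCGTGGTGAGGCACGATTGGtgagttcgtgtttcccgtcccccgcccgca
Creld2: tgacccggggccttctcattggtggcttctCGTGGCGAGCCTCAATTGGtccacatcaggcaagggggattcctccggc
Both matches lie on the strand opposite to the gene as printed.

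Targets of p53, the factor of DNA damage and growth arrest, had a lower response for 14 of 22 genes and a higher one for 1, with a median of -0.55. Cdkn1a, which encodes the cell cycle inhibitor p21, was estimated at 446 and 2031 with shRNA-Ctrl and at 822 and 949 with shRNA-cFos (-1.57 ± 0.28). It rose with shRNA-Ctrl and did not pass with shRNA-cFos (adjusted p = 0.38 in the authors' deposited table). Phlda3, a p53-induced repressor of Akt, differed by -1.64 ± 0.22 and Tnfrsf10b, a death receptor gene, by -1.60 ± 0.31. This list shares 7 genes with other lists, Sesn2 and Cdkn1a among them. The Nrf2 list of antioxidant genes had 5 lower and 4 higher of 24, beside 11.1% and 14.5% of all genes, and a median of -0.02. Even so, Hmox1, the heme oxygenase gene, was among the largest lower responses (-1.93 ± 0.23). Lysosomal genes had 19 lower and 1 higher of 36, with a median of -0.30. Their median log2 ratio was 0.20 at E0 and -0.19 at E1, and -0.23 and -0.63 without scaling. Gla, which encodes alpha-galactosidase, was estimated at 218 and 729 with shRNA-Ctrl and at 510 and 595 with shRNA-cFos (-1.48 ± 0.16). Grn, the progranulin gene, and Ctsd, the cathepsin D gene, followed at -1.12 ± 0.16 and -1.07 ± 0.21.

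Interferon response genes were the list with the lowest median difference of the 43. Of 44 genes, 43 had a lower and 0 a higher response, and all 44 differences were below 0, from -2.26 to -0.27. The median was -1.59, and -2.25 with the shrinkage removed. By the authors' deposited tables, 39 rose and 1 fell with shRNA-Ctrl, while 0 rose and 36 fell with shRNA-cFos. Ifit1, an antiviral RNA-binding protein gene, was estimated at 85.5 and 440 with shRNA-Ctrl and at 349 and 159 with shRNA-cFos. The difference of Ifit1 was -2.26 ± 0.35 (adjusted p = 1.2e-08, normal approximation). Ifit3 went from 265 to 1175 and from 942 to 451, and Bst2, the virus-tethering protein gene, from 176 to 602 and from 562 to 236. The median log2 ratio was 1.41 at E0 and -0.81 at E1, and 40 of the 43 genes called had their larger part at E0. Without scaling, the medians were 0.98 and -1.24, so the larger part then lay at E1. The summed estimated level of the list was 9663 at E0 and 21489 at E1 with shRNA-Ctrl, and 23652 and 12420 with shRNA-cFos. For 19 of the 44 genes a standard error lay within 5% of the largest the shrinkage allows, against 107 of all 12405, and the size of these fold changes is uncertain. Whether 1 or a few animals carry this pattern was not tested, since no value per library is at hand.

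The interferon-stimulated response element GAAANNGAAA, which Stat and Irf factors bind, was present in 3.66% of all promoters searched, 8.09% of those with a lower and 2.98% of those with a higher response. In the interferon list 17 of 33 promoters held it. All 17 genes had a lower response, but so had 43 of the 44 genes of the list, so this count says nothing about the element. The stretches of Ifit1 (chr19:34640755-34640824 (plus strand)), Ifit3 (chr19:34583343-34583412 (plus strand)), Bst2 (chr8:71537557-71537626 (minus strand)) and Oas1a (chr5:120907526-120907575 (minus strand)) show the element in 4 of the 15 largest lower responses, with the match in capitals.
Ifit1: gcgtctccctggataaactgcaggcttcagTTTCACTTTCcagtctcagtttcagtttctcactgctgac
Ifit3: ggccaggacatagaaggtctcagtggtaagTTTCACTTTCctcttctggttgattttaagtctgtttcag
Bst2: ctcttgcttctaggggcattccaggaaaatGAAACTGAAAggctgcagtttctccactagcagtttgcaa
Oas1a: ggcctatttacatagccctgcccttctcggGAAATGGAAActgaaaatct
In Ifit1 and Ifit3 the match reads on the opposite strand, and each of the 4 promoters holds a second match. The AP-1 element TGANTCA was present in 5.79% of all promoters, 7.62% of those with a lower and 6.20% of those with a higher response, and in 0 of 20 immediate early factors. It was present in 8 of 33 promoters of the interferon list, in 4 of 20 reactive astrocyte, 4 of 19 Nrf2 and 3 of 11 chemokine and cytokine promoters. These lists overlap, with Gbp2 and Cxcl10 among the shared genes. The AP-1 element was also present in 3 of 15 leptomeningeal fibroblast, 7 of 36 histone-modifying enzyme and 3 of 21 granule neuron marker promoters. It was thus not particular to immune and stress lists. The cyclic AMP response element TGACGTCA was present in 3.63%, 2.82% and 2.83%, the antioxidant element TGACNNNGC in 17.0%, 17.6% and 17.1% and the E-box CACGTG in 11.9%, 13.2% and 10.1%. An AP-1 match that reads TGACTCA and is followed by GC is also an antioxidant element match. A match is a run of letters and not a measured binding site.

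Lists of antigen presentation and of microglia held lower responses as well. MHC class I and antigen presentation genes had 16 lower and 0 higher of 20, with a median of -1.27. Their median log2 ratio was 0.99 at E0 and -0.58 at E1, and 0.56 and -1.01 without scaling. Nlrc5, the activator of class I genes, was estimated at 65.4 and 296 with shRNA-Ctrl and at 314 and 125 with shRNA-cFos (-2.25 ± 0.36). Tap1, a peptide transporter gene, went from 184 to 642 and from 549 to 273. Microglial and complement genes had 22 lower and 0 higher of 32, with a median of -0.90. Their median log2 ratio was 0.56 at E0 and -0.42 at E1, and 0.13 and -0.85 without scaling. Among them C1qa, a complement gene, was estimated at 1428 and 2127 and at 2065 and 1418 (-1.01 ± 0.23), and the lysosomal marker Cd68 differed by -1.19 ± 0.25. The defining homeostatic markers Tmem119 (-0.28 ± 0.15), Cx3cr1 (-0.27 ± 0.13) and P2ry12 (0.45 ± 0.19) did not pass. The summed level of the microglial list was 20760 and 29496 with shRNA-Ctrl and 31082 and 22308 with shRNA-cFos. Tmem119, Cx3cr1, P2ry12 and C1qa were chosen after their values were seen.

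Reactive astrocyte markers, genes that astrocytes raise after injury, had 14 lower and 0 higher of 22 and a median of -0.98. Of these 22 markers, 5 are also on other lists. Their median log2 ratio was 0.86 at E0 and -0.32 at E1, and 0.42 and -0.75 without scaling. Serpina3n was estimated at 2179 and 4814 with shRNA-Ctrl and at 4011 and 3313 with shRNA-cFos (-1.34 ± 0.17). Gfap, the astrocyte filament gene, was estimated at 19334 and 21312 with shRNA-Ctrl and at 30396 and 20056 with shRNA-cFos (-0.71 ± 0.16). In contrast, homeostatic astrocyte markers had 3 lower and 9 higher of 20 and a median of 0.22. Slc1a2, the main glutamate transporter, differed by 0.75 ± 0.16 and Gja1, the connexin 43 gene, by 0.64 ± 0.12. The 3 lower ones included Sox9 (-0.79 ± 0.15), the largest difference of the list in size, and Aldh1l1 (-0.64 ± 0.14). Myelin and oligodendrocyte genes had 4 lower and 0 higher of 20, beside 11.1% and 14.5% of all genes, and a median of -0.15. The chemokine and cytokine list had 6 lower and 2 higher of 14 and a median of -0.12, which turned to 0.09 without genes near the largest standard error and to 0.11 with a minimum mean of 200. The part of these glial and interferon genes in the other differences was not tested.

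**Figure D4:**
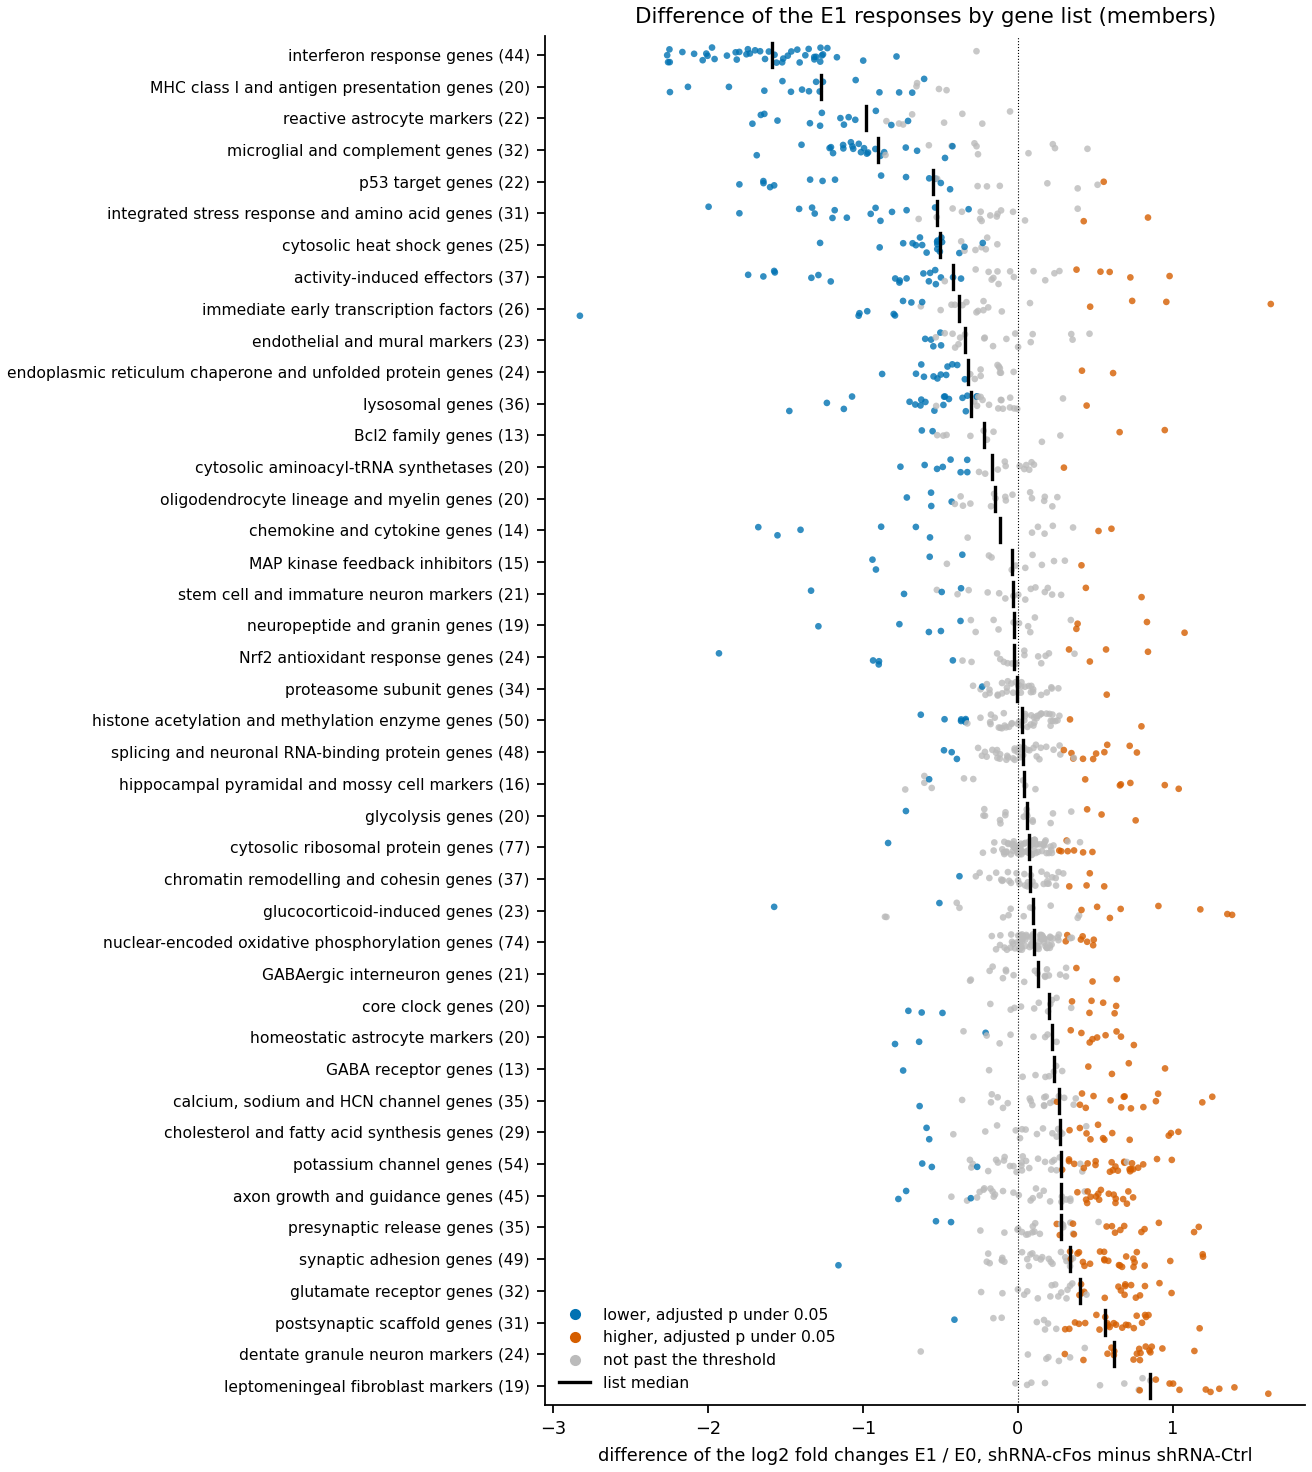
Each point is 1 gene of a list, at its difference of the log2 fold changes E1 over E0 (shRNA-cFos minus shRNA-Ctrl), coloured by its call, with the list median as a black bar and the number of genes beside each name; vertical scatter within a row is random. Interferon genes lie between -2.26 and -0.27, and granule neuron markers (median 0.62) and postsynaptic scaffold genes (0.56) lie mostly above 0.

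Most lists of neuronal genes held more higher than lower responses, while stem cell and immature neuron markers had 2 higher and 4 lower of 21. Over all genes, 14.5% had a higher and 11.1% a lower response. Dentate granule neuron markers, all 24 of which lay above the minimum count in this tissue, had 17 higher and 0 lower responses and a median of 0.62. By the authors' deposited tables, 2 rose and 14 fell with shRNA-Ctrl, while 12 rose and 0 fell with shRNA-cFos. C1ql2, a synaptic organizer secreted by mossy fibres, was estimated at 5249 and 2896 with shRNA-Ctrl and at 2367 and 3180 with shRNA-cFos. The difference of C1ql2 was 1.14 ± 0.23 (adjusted p = 2.5e-05, normal approximation). Calb1, which encodes the calcium buffer calbindin, went from 4150 to 3991 and from 2677 to 4013 (0.62 ± 0.12), so the scaled levels at E1 were nearly equal. Prox1, the factor that defines granule neurons, went from 3120 to 2362 and from 2186 to 2567 (0.62 ± 0.11). The median ratio of the list was -0.49 at E0 and 0.13 at E1 relative to the median gene, and -0.92 and -0.30 without scaling. Markers of neighbouring hippocampal neurons had 1 lower and 6 higher of 16 (median 0.04). Interneuron genes had 0 lower and 3 higher of 21 (median 0.13), a share of higher responses near the 14.5% of all genes. Calb1 and Prox1 were chosen after their values were seen.

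Postsynaptic scaffold genes had 23 higher and 1 lower of 31, with a median of 0.56. Their median log2 ratio was -0.29 at E0 and 0.22 at E1, and -0.72 and -0.21 without scaling. Camk2a, the abundant kinase of spines, was estimated at 86974 and 73238 with shRNA-Ctrl and at 60404 and 91545 with shRNA-cFos (0.83 ± 0.12). Dlg4, which encodes PSD-95, differed by 0.77 ± 0.12, and Sipa1l3 by 1.17 ± 0.12. Synaptic adhesion genes had 24 higher and 1 lower of 49, with a median of 0.34, led by Islr2 and Mdga1 (both 1.19). Islr2 fell with both hairpins, from 5346 to 1435 and from 4375 to 2788. Glutamate receptor genes had 16 higher and 0 lower of 32, with a median of 0.40. Grin2b, an NMDA receptor subunit gene, differed by 0.79 ± 0.14. GABA receptor genes had 4 higher and 1 lower of 13, with Gabra4 at 0.95 and Gabra3 at -0.74.

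Ion channel and release lists also held more higher than lower responses, although at least as many of their genes did not pass as did. Potassium channel genes had 24 higher and 3 lower of 54 (median 0.28), and calcium, sodium and HCN channel genes 15 higher and 1 lower of 35 (median 0.26). Orai2, a store-operated calcium channel subunit gene, was estimated at 6281 and 3830 with shRNA-Ctrl and at 2877 and 4110 with shRNA-cFos (1.19 ± 0.14). Presynaptic release genes had 14 higher and 2 lower of 35 (median 0.28). Slc17a7, the vesicular glutamate transporter of these neurons, differed by 1.17 ± 0.15 and Syt7, a calcium sensor of release, by 1.14 ± 0.14. Axon growth and guidance genes had 17 higher and 3 lower of 45. The largest higher response of all, Lrrc10b, fell with shRNA-Ctrl from 1508 to 672 and rose with shRNA-cFos from 632 to 1151, a difference of 1.94 ± 0.16 (adjusted p = 3.0e-29, normal approximation).

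Hormone and metabolic genes held smaller groups. Glucocorticoid-induced genes, which respond to the stress hormone corticosterone, had 8 higher and 2 lower of 23, with a median of 0.09. Fkbp5, a chaperone that restrains the glucocorticoid receptor, was estimated at 1877 and 1226 with shRNA-Ctrl and at 966 and 1662 with shRNA-cFos (1.35 ± 0.14). Zbtb16, a hormone-induced zinc finger gene, differed by 1.18 ± 0.14, and Nr3c2, the mineralocorticoid receptor gene, by 0.91 ± 0.12. Cholesterol and fatty acid synthesis genes had 12 higher and 2 lower of 29, with a median of 0.27. Their median ratios were 0.02 at E0 and 0.36 at E1, with the larger part at E0 for 3 of the 14 called. Without scaling the medians were -0.41 and -0.08, so the larger part then lay at E0. Idi1, an isoprenoid enzyme gene, went from 683 to 573 and from 529 to 917 (0.97 ± 0.19), and Hsd17b7, of late cholesterol synthesis, differed by 1.04 ± 0.18. Core clock genes had 6 higher and 3 lower of 20, beside 14.5% and 11.1% of all genes.

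Most housekeeping lists differed at a smaller share of genes than the 25.6% over all genes. Cytosolic ribosomal protein genes had 7 higher and 1 lower of 77 (median 0.07), nuclear-encoded oxidative phosphorylation genes 7 higher and 0 lower of 74 (median 0.10), and proteasome subunit genes 1 higher and 1 lower of 34 (median -0.01). Chromatin remodelling and cohesin genes had 4 higher and 1 lower of 37, histone-modifying enzyme genes 2 higher and 7 lower of 50, and glycolysis genes 3 higher and 1 lower of 20. Splicing and neuronal RNA-binding protein genes, with 10 higher and 3 lower of 48, and the cholesterol genes lay above that share. By the authors' deposited tables, 147 of 272 numbered zinc finger genes fell and 21 rose with shRNA-Ctrl, while 65 fell and 25 rose with shRNA-cFos. Over all genes, 19% fell and 18.8% rose with shRNA-Ctrl, and 12.6% fell and 18.7% rose with shRNA-cFos. In the zinc finger list 29 had a higher and 4 a lower response, both smaller shares than the 14.5% and 11.1% of all genes.

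A list of leptomeningeal fibroblast markers, cells of the membranes around the brain, was added after the values were seen because Myoc (1.62 ± 0.21), Lor (1.40 ± 0.23) and Ptgds (1.30 ± 0.38) were among the 15 largest higher responses. Of its 19 genes, 10 had a higher and 0 a lower response, beside 14.5% and 11.1% of all genes, with a median of 0.85. Lor and Ptgds, which prompted the list, are counted in it. The count and the median are therefore a description and not separate support. Of the 21 genes listed, 2 (Slc22a6 and Slc47a1) lay under the minimum count. The summed estimated level of the 19 was 15185 and 6069 with shRNA-Ctrl and 9356 and 10770 with shRNA-cFos. For 12 of the 19 a standard error lay near the largest possible. Of 3 choroid plexus markers above the minimum, 1 had a higher response, and their summed level was 2399 and 1831 with shRNA-Ctrl and 2449 and 2285 with shRNA-cFos. The part of membrane tissue in the other differences was not tested.

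Values with c-Fos overexpression come from other animals and were not used to form the interaction. Of 12378 genes tested there, 944 (7.63%) were higher and 902 (7.29%) lower in cFos_OE than in EYFP_OE in the authors' deposited table. Among genes with a lower response, 258 of 1365 (18.9%) were higher and 56 (4.10%) lower with c-Fos overexpression in the authors' deposited table. Among those with a higher response the balance was the other way, with 102 of 1799 (5.67%) higher and 370 (20.6%) lower. The median overexpression log2 fold change was 0.08 and -0.09 in the 2 classes in the authors' deposited table, and -0.01 among genes that did not differ. Across 12384 genes, which are not independent, Spearman's rho between the difference and the overexpression fold change was -0.25.

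The shares were similar whether the larger part of the difference lay at E0 or at E1. Of the lower responses, 204 of 1066 with the larger part at E0 (19.1%) and 54 of 299 with it at E1 (18.1%) were higher with overexpression in the authors' deposited table. Of the higher responses, 247 of 1224 (20.2%) and 123 of 575 (21.4%) were lower with overexpression there. Reactive astrocyte markers were higher with overexpression for 16 of 20, microglial genes for 18 of 32, antigen presentation genes for 12 of 20 and effectors for 14 of 37 in the authors' deposited table. Glutamate receptor genes were lower for 12 of 32, granule neuron markers for 11 of 24 and scaffold genes for 10 of 31 there. Immediate early factors stood at 4 higher and 8 lower of 26. Egr1 (-1.27 ± 0.13) and Fosb (-0.79 ± 0.15) were lower with overexpression in the authors' deposited table although both also had a lower response with shRNA-cFos. Integrated stress response genes were higher for 3 and lower for 5 of 31 and heat shock genes higher for 1 and lower for 0 of 25, and Ddit3 stood at -0.07 ± 0.12 in the authors' deposited table. Interferon genes were higher for 10 and lower for 0 of 41.

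**Figure D5:**
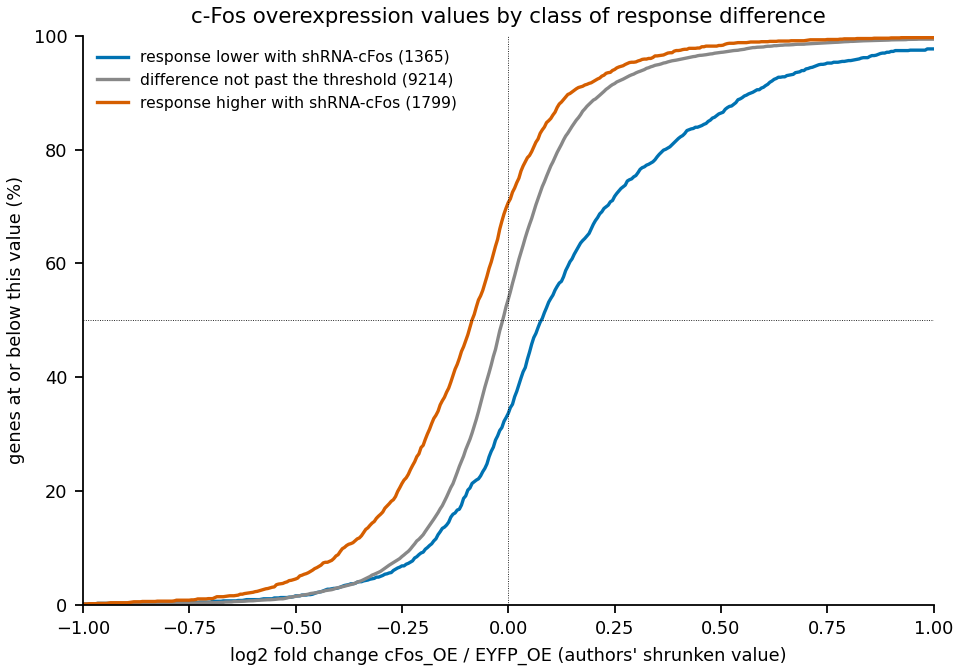
Cumulative share of genes (y axis, percent) at or below each log2 fold change of c-Fos overexpression over EYFP (x axis, the authors' shrunken value), for genes with a lower response (1365), a higher response (1799) or no difference past the threshold (9214). The curve of lower responses lies to the right (median 0.08) and that of higher responses to the left (median -0.09) of the curve of genes that did not differ (-0.01).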

How the data were processed

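Dentate gyrus RNA-seq libraries were grouped by their titles, 3 per group. Per the submitters' processing notes, TopHat2, DESeq2 and the mouse build mm9 were used, with no versions given. Counting tool, annotation and strand setting were not given in the sources used here, so reads of overlapping and antisense genes cannot be told apart.

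The deposited tables hold the authors' comparisons. Per the file headers, each row gives a mean normalized count, a signal over the libraries of the comparison. Per the file headers, there is also a log2 fold change with a standard error. The deposited score is the Wald statistic, the fold change over its error. The deposited p-value and its adjusted form follow from that score. The tables hold 0 columns of values per library, so depth per library is unknown and the planned fit per library could not be made. The deposited fold changes were shrunken by a zero-centred prior, with an SD of 0.586 for shRNA-Ctrl and 0.527 for shRNA-cFos estimated from the largest standard errors. The prior was removed algebraically as an alternative, which is uncertain for genes near the largest standard error (over 0.95 of it).

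The difference of the log2 fold changes was divided by its standard error, the square root of the sum of both squared errors, since the tables rest on separate animals. The p is that of a normal distribution, 2-sided, adjusted by Benjamini-Hochberg over the 14386 genes tested in both tables (Python 3.11.15, pandas 2.3.3, NumPy 2.4.6, SciPy 1.17.1). The calculation was also run on simulated fold changes with normal errors of known size. As the simulation shared the assumption of the test, it cannot show whether that assumption holds with 3 libraries per group. E0 and E1 levels were solved from the mean count and the fold change with the prior removed, taking the mean over equal groups. For overexpression, 27 rows named as dates were left out.

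The 43 lists, the genes and the tests were chosen with earlier results of these data known, and 2 marker lists and 1 alternative were added after seeing the data. Named genes are Fos, the 15 largest differences per direction, up to 6 per list, all immediate early factors and effectors where described, and the 8 largest per opposite pattern, and others are said to be chosen after their values were seen. Some genes that the rule names are not reported here. The alternatives were other thresholds, minimum means, centring, prior removal and scalings of the levels.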

Additional observations from a re-analysis of the deposited data

Results flagged for a closer look

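The E1 response differed between the hairpins, by the test of the difference itself, for 3176 genes. Among these, 239 genes rose with shRNA-Ctrl and fell with shRNA-cFos, and 302 genes fell with shRNA-Ctrl and rose with shRNA-cFos, so that the 2 arms moved in opposite directions.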

How the results depend on the processing

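No paired analysis was possible because the tables hold comparisons without values per library, and for the same reason no library could be left out. With an adjusted p under 0.01, 2080 genes differed, 863 of them lower. With an adjusted p under 0.05 and a fold of at least 1.5, 1458 differed, 760 lower and 698 higher, so that 47.9% were higher in place of 56.8%. Centring on the median difference gave 3134 genes with 51.3% higher, and a minimum mean of 200 gave 2600 with 63.1% higher. Removing the prior, minimum means of 20 or none, adjustment over the members only and leaving out genes near the largest standard error kept the count within 1.5 times of 3176. Of the genes that rose with shRNA-Ctrl and fell with shRNA-cFos, 111 were left at 0.01 and 87 at 1.5-fold in both tables. Of the opposite set, 150 and 6 were left. Among genes with a lower response, 29 were lower with overexpression at 0.01 in place of 56. The count with the larger part at E0 was 1859 without scaling, 2343 scaled by the E1 ratio and 2297 with shrunken levels, in place of 2301. Of 252 named differences, 30 did not pass at 0.01, 3 when centred and 2 (Arc and Egr2) with the prior removed, and 0 turned direction. The cause of these changes was not tested. Depth per library is unknown, and standard errors limit what could be called.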
